A study of Mus musculus with 35 samples.

Results

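The effect of Shank3 deficiency on the mouse medial prefrontal cortex was taken as the equal-weight mean of 4 differences between knockout (KO) and wild-type (WT) libraries, 1 within each treatment. It rests on 32 of the 35 bulk RNA-seq libraries, 16 KO and 16 WT. The other 3 libraries carry a WT label but had Shank3 at an intermediate level, and were left out for that reason, so the libraries were selected on their measured Shank3 values: those labelled WT_acetate 2, WT_acetate 5 and WT_abx 4. All 14870 genes of the deposited matrix were tested.

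The series asked how acetate, and depletion of gut bacteria with antibiotics, change transcription in this cortex in mice with and without Shank3. Shank3-deficient mice (KO) received water as control (n = 4), antibiotics (abx, n = 3), acetate (n = 5) or antibiotics plus acetate (abx_and_acetate, n = 4). Of the WT mice, 6 water controls, 3 of 4 abx, 3 of 5 acetate and all 4 abx_and_acetate libraries were used. The KO libraries hold 8 females and 8 males by label and the WT libraries 5 females and 11 males, with no female left in WT_acetate. The sources used here do not give the exons that the Shank3 allele lacks, the strain, the age of the mice or whether each library is a separate animal. The p-values therefore cover the spread between these libraries, which may be technical in part. Libraries carry the name of their group and a number, which has no other meaning.

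Shank3 is a scaffold protein of the postsynaptic density, the protein mesh under the receptors of excitatory synapses. It binds SAPAP proteins, which tie it to PSD-95, and Homer, which ties it to metabotropic glutamate receptors, and it links this mesh to the actin of the dendritic spine. Loss of a human SHANK3 copy causes Phelan-McDermid syndrome, in which autism is common, and mice that lack Shank3 are widely used to study social behaviour.

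Depth was 12.8 to 28.0 M reads per library with a median of 21.9 M, and the RNA integrity number was 8.8 to 9.3. The pan-neuronal marker Rbfox3 lay between 8.12 and 8.58 log2 CPM and the cortical glutamatergic marker Slc17a7 between 10.48 and 11.06, so every library carried cortical neuron RNA. KO_control 1 stood apart on component 1 of a principal component analysis (11.4% of the variance), and KO_acetate 1 on component 2 (10.1%) with the striatal dopamine receptor Drd1 at 5.62 log2 CPM against a median of 2.77. In 2 of the 32 libraries the Y-linked genes went against the sex label: WT_acetate 4, labelled male, and WT_abx 3, labelled female. The mean level of these genes was at most 0.93 or at least 4.69 log2 CPM in the 32 libraries. Of the left-out libraries, that labelled WT_acetate 2 is labelled male and had -0.06, and that labelled WT_acetate 5 is labelled female and had 3.36, between both ranges.

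Shank3 lies on chromosome 15 from 89499623 to 89560261 (plus strand, GRCm38). It lay between 4.07 and 5.11 log2 CPM in KO libraries, with a median of 4.45, and between 8.22 and 8.85 in WT libraries, with a median of 8.47. The difference was -3.96 ± 0.07 (SE), or 15.6-fold lower in KO. Shank3 chose the libraries, so this gap is a description: the lowest WT library that was kept had 8.22 and the highest one left out had 8.08. The 3 left-out libraries had 7.80 (WT_acetate 2), 8.08 (WT_acetate 5) and 7.48 (WT_abx 4). On the linear CPM scale these are 61.8%, 75.4% and 49.8% of the WT mean of 359.9 CPM.

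Acr encodes acrosin, a protease of sperm, and is the next gene on the same strand of chromosome 15, from 89568326 to 89574585. It lay between 5.04 and 5.78 log2 CPM in KO libraries and between -0.46 and 0.83 in WT libraries. It was higher in KO by 5.22 ± 0.10 (37.2-fold). The left-out libraries had 4.46, 3.62 and 4.56 in the order given above, which is 48.7%, 27.2% and 52.3% of the KO mean of 45.1 CPM. Acr moved with Shank3 in every library, so it carries no evidence beyond the choice of libraries.

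**Figure D1:**
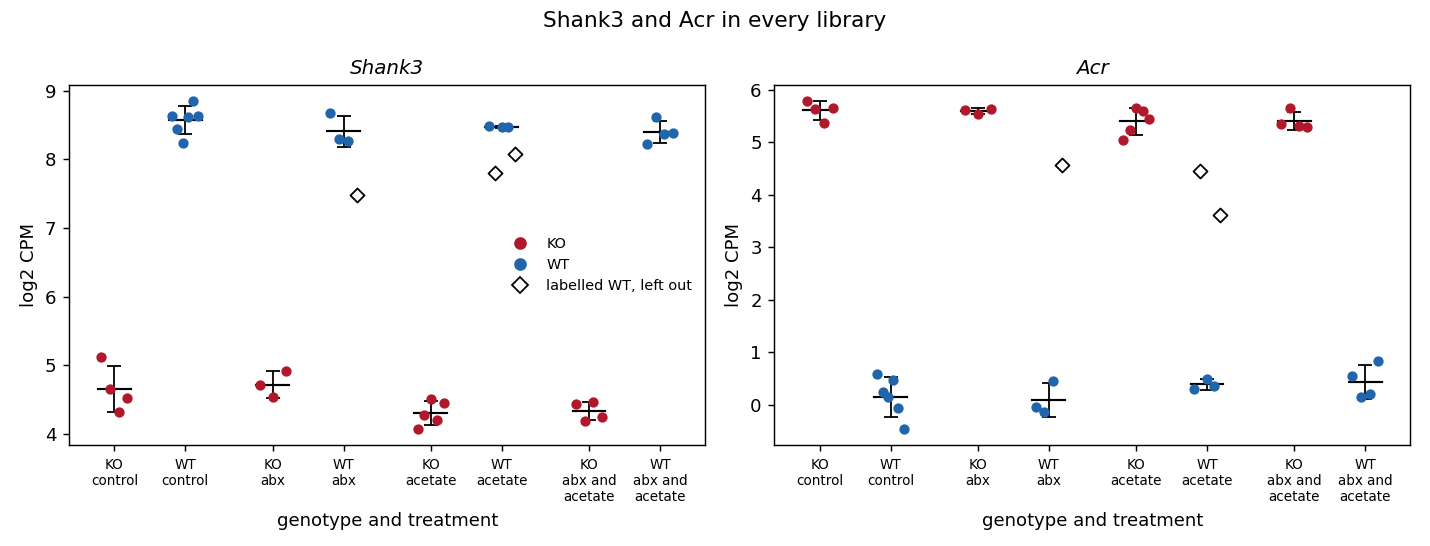
Shank3 (left) and Acr (right) in log2 CPM in every library, KO beside WT in each treatment. Filled points are the 32 libraries used, lines and bars their group mean and SD, and open diamonds the 3 left-out libraries labelled WT, which lie between the KO and WT points for both genes.

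Few other genes differed between the genotypes. At an adjusted p below 0.05, limma called 4 of 14870 genes (0.0269%): Shank3 was lower in KO (0.00672%), and Acr, Fgl1 and C730034F03Rik were higher (0.0202%). Shank3 chose the libraries and Acr and C730034F03Rik are its neighbours, so these 3 calls are given as a description. At an unadjusted p below 0.05 there were 1054 genes (7.09%), 512 higher and 542 lower in KO, where 743.5 would be expected if no gene differed. That count ran from 751 to 1520 over the 43 other settings tried, and was 753 without the sex term. The difference was above 0 for 51.2% of all genes and below 0 for 48.8%. All 16 KO values lay above or below all 16 WT values for 3 genes (0.0202%), Shank3, Acr and Fgl1. Of these, Shank3 and Acr are again a description.

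**Figure D2:**
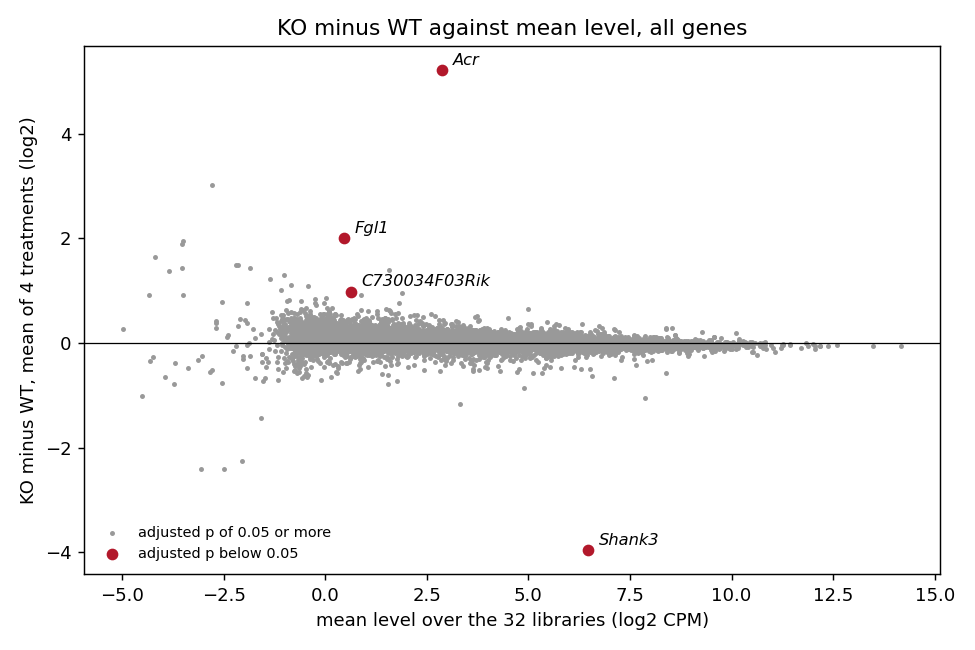
KO minus WT, the mean of the 4 treatments on the log2 scale, against the mean level in log2 CPM for all 14870 genes. Red points are the 4 genes with an adjusted p below 0.05, and the grey points of the other genes spread most widely at low levels.

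Fgl1 was the called gene that lies off chromosome 15. It encodes fibrinogen-like protein 1, a secreted protein known mainly from the liver and as a ligand of the immune checkpoint receptor LAG3. The gene is on chromosome 8 from 41191434 to 41215156 on the minus strand. It was scarce, with 33 to 104 reads in KO libraries and 9 to 36 reads in WT libraries. In control, the 4 KO libraries had 2.22, 1.59, 1.34 and 1.90 log2 CPM, and the 6 WT libraries -0.66, 0.55, -0.22, -0.81, -0.91 and 0.14. Under antibiotics, KO had 1.70, 0.89 and 1.94 and WT -1.14, -0.42 and -0.84. No KO library reached down to a WT library of its treatment.

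In the acetate groups the Fgl1 values were also apart. Under acetate, the 5 KO libraries had 1.45, 1.48, 1.42, 0.71 and 1.67, and the 3 WT libraries -0.33, -1.18 and -0.51. Under antibiotics plus acetate, KO had 1.64, 0.96, 0.93 and 0.84 and WT -0.98, -1.14, -0.08 and 0.46. The lowest KO library, KO_acetate 4 at 0.71, lay above the highest WT library, WT_control 2 at 0.55, so the genotypes did not overlap across all 32 libraries.

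Fgl1 averaged 1.42 ± 0.44 log2 CPM in KO and -0.50 ± 0.56 in WT libraries (SD, n = 16 each). It rose by 2.00 ± 0.19 (SE) in KO, which is 4.0-fold, with an adjusted p = 1.38e-07 in limma. The difference was 2.08 ± 0.32 in control (adjusted p = 0.00302), 2.31 ± 0.41 in abx (adjusted p = 0.0248), 2.05 ± 0.37 in acetate (adjusted p = 0.0284) and 1.56 ± 0.37 in abx_and_acetate (adjusted p = 0.358). The interaction test, which asks whether these 4 differences differ, gave an unadjusted p = 0.559 in limma. By sex, KO females had 1.29 ± 0.50 and KO males 1.55 ± 0.37 (SD, n = 8 each), against -0.39 ± 0.64 in WT females (SD, n = 5) and -0.56 ± 0.54 in WT males (SD, n = 11).

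The averaged Fgl1 call held in each of 32 fits that left out 1 library, with differences from 1.93 to 2.13 and adjusted p from 1.65e-08 to 1.19e-06. Within single treatments it was less firm. The abx call was lost without WT_abx 1, WT_abx 2, WT_abx 3, KO_abx 1 or KO_abx 3 (adjusted p = 0.0521 to 0.397). The acetate call was lost without WT_acetate 1, 3 or 4 or without KO_acetate 1, 2, 3 or 5 (adjusted p = 0.0698 to 0.399). With voom weights both were lost (adjusted p = 0.0516 in abx and adjusted p = 0.0855 in acetate), as they were without the libraries that go against their sex label (adjusted p = 0.263 and adjusted p = 0.200) and with all 35 libraries (adjusted p = 0.544 and adjusted p = 0.333). The control call held in all 32 such fits. With KO_control 1 and KO_acetate 1 out together the control and acetate calls were lost (adjusted p = 0.0647 and adjusted p = 0.125).

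In the libraries left out for their Shank3 level, Fgl1 was at 0.19 (WT_acetate 2), 0.08 (WT_acetate 5) and 0.95 (WT_abx 4). On the linear scale they lay 18.9%, 14.6% and 57.7% of the way from the WT mean of 0.759 CPM to the KO mean of 2.79 CPM. They were above 14, 13 and 16 of the 16 WT libraries. Of the 16 KO libraries, 16, 16 and 12 lay above them in the same order. The library labelled WT_abx 4 thus lay within the KO range, above KO_acetate 4 at 0.71. The lack of overlap between genotypes therefore holds only for the 32 libraries used. With all 35 libraries in the fit, the Fgl1 difference was 1.78 (adjusted p = 2.46e-06).

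Among 14 secreted fibrinogen-like and angiopoietin-like genes with their partners, Fgl1 was the member called. All 14 averaged differences were above 0, against 51.2% of all genes, with a median of 0.23 against 0.00 over all genes. Of the 14, 1 had an unadjusted p below 0.05, Fgl1 itself. With all 35 libraries the median was 0.14. Within treatments, 2 members were below 0 in control, 3 in abx, 6 in acetate and 2 in abx_and_acetate. The angiopoietin-like gene Angptl7 was at 0.37 ± 0.18 and the vessel growth factor Angpt1 at 0.32 ± 0.16. Lag3, which encodes the receptor of FGL1 and was picked out after its value was seen, was at 0.13 ± 0.10. In bulk tissue, more cells that make Fgl1 and more Fgl1 RNA per cell cannot be told apart.

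C730034F03Rik lies upstream of Shank3 on chromosome 15, from 89429589 to 89430868 on the plus strand. It lay between -0.13 and 2.05 log2 CPM in KO libraries (median 1.02) and between -0.59 and 0.96 in WT libraries (median 0.19). In 9 of the 16 KO libraries it was above every WT library. It was higher by 0.97 ± 0.17 in KO, with differences of 1.21 ± 0.29 in control, 1.14 ± 0.36 in abx, 0.57 ± 0.33 in acetate and 0.98 ± 0.33 in abx_and_acetate. The KO library lowest for it was KO_acetate 1, at -0.13. Its adjusted p in limma was 0.0105, given as a description for a neighbour of Shank3. The call held in 32 of 32 fits with 1 library left out (adjusted p = 0.00134 to 0.0477). Those fits all keep the choice of libraries by Shank3, and the call was lost with all 35 libraries (adjusted p = 0.0536). The left-out libraries had 0.82, 0.60 and 1.16, and the library labelled WT_abx 4 lay above every WT library kept.

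**Figure D3:**
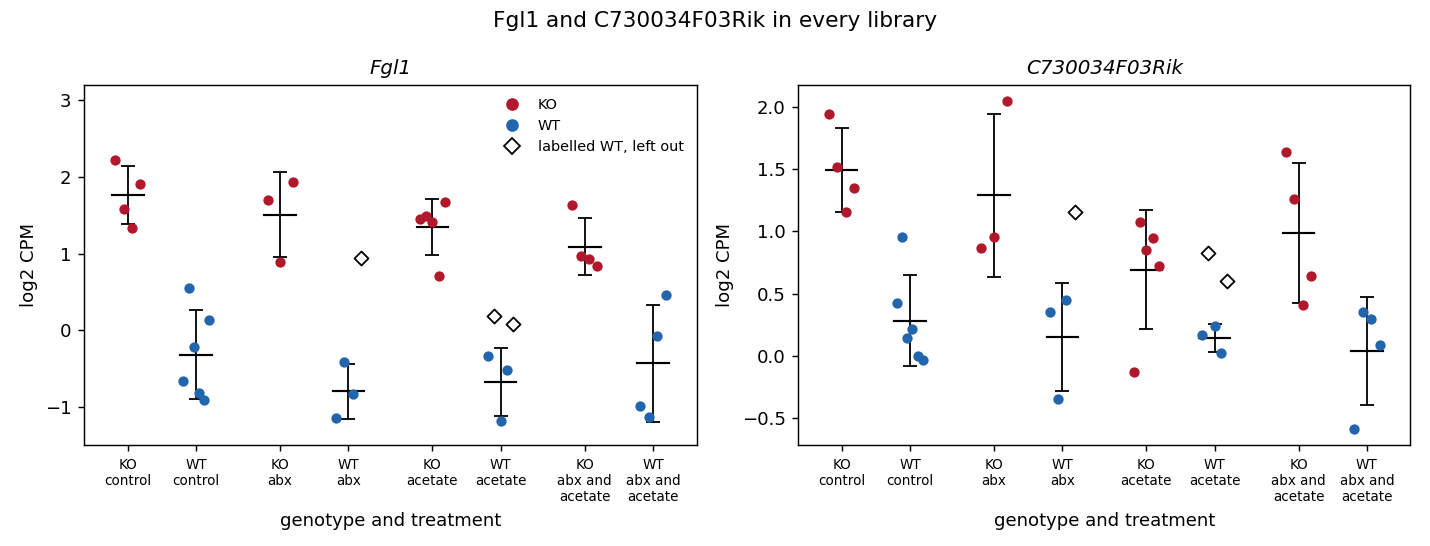
Fgl1 (left) and C730034F03Rik (right) in log2 CPM in every library, KO beside WT in each treatment. Points, bars (mean and SD) and open diamonds are as for Shank3. Fgl1 lies at 0.71 or above in all KO libraries and at 0.55 or below in all WT libraries used, while C730034F03Rik overlaps between genotypes.

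Other genes near Shank3 differed little. Of the 32 other genes within 1 Mb, 2 were called (Acr and C730034F03Rik) and 6 (18.8%) had an unadjusted p below 0.05, against 7.09% of all genes. The remaining 4 were the lysosomal sulfatase gene Arsa at 0.13 ± 0.05, the semaphorin receptor gene Plxnb2 at 0.11 ± 0.04, the lipase maturation gene Lmf2 at 0.10 ± 0.05 and the condensin gene Ncaph2 at -0.06 ± 0.03. Within 10 Mb the share was 6.6% of 197 genes. As neighbours of the locus that chose the libraries, C730034F03Rik and these genes are given as a description.

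Shank1 and Shank2, which encode the other members of the Shank family, had differences of -0.04 ± 0.07 (adjusted p = 0.901) and -0.08 ± 0.07 (adjusted p = 0.808). Shank1 lay between 9.18 and 10.24 log2 CPM in KO and between 9.64 and 10.21 in WT libraries. Shank2 lay between 7.26 and 8.23 in KO and between 7.67 and 8.36 in WT libraries. Neither gene separated the genotypes.

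The genes next in line by p did not pass the threshold. Dhcr7, which encodes the reductase of the last step of cholesterol synthesis, lay between 4.58 and 5.14 log2 CPM in KO and between 4.48 and 4.92 in WT libraries. Its difference was 0.20 ± 0.04 (adjusted p = 0.0895), and it passed without WT_acetate 1 (adjusted p = 0.0170) or without KO_acetate 3 (adjusted p = 0.0269). The difference was -0.02 ± 0.07 in control, 0.21 ± 0.09 in abx, 0.22 ± 0.08 in acetate and 0.39 ± 0.08 in abx_and_acetate. In abx_and_acetate the 4 KO libraries (4.89 to 5.05) all lay above the 4 WT libraries (4.48 to 4.62).

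The transcription factor gene Jun lay between 5.47 and 6.17 log2 CPM in KO libraries, against 4.96 to 5.92 in WT libraries. Its difference was 0.36 ± 0.09 (adjusted p = 0.497), and 8 KO libraries lay above all WT libraries. The neurofilament gene Nefl lay between 8.50 and 9.05 in KO libraries, against 8.82 to 9.49 in WT libraries. Its difference was -0.25 ± 0.06 (adjusted p = 0.364), and 8 KO libraries lay below all WT libraries. Both genes kept their sign in all 4 treatments, as did 2720 genes (18.3%) in all.

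Of the other genes by this rule with a higher level in KO, Cd24a, which encodes a cell surface glycoprotein, was at 0.60 ± 0.16 and the monooxygenase gene Moxd1 at 0.44 ± 0.11. Pagr1a, which encodes a partner of histone methyltransferases, was at 1.40 ± 0.37 but ranged from 0.26 to 3.68 in KO and from -0.73 to 2.89 in WT libraries. Tcp11l2 was at 0.17 ± 0.05, the GTPase-activating gene Elmod2 at 0.18 ± 0.05 and the exonuclease gene Eri2 at 0.18 ± 0.05. The unnamed transcripts 9930012K11Rik and D930015E06Rik were at 0.61 ± 0.17 and 0.21 ± 0.06. Each had an adjusted p of at least 0.525, so none passed the threshold.

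Of those with a lower level in KO, Pink1, the kinase that marks damaged mitochondria, was at -0.12 ± 0.03. The G protein regulator gene Rgs7 was at -0.17 ± 0.04, the heparan sulfate enzyme gene Hs2st1 at -0.14 ± 0.04 and the F-box gene Fbxo33 at -0.23 ± 0.06. The small GTPase gene Arl5b was at -0.25 ± 0.07, the sister chromatid cohesion gene Dscc1 at -0.56 ± 0.14, and Zfp367 at -0.20 ± 0.05. Csrnp2 was at -0.16 ± 0.04 and D3Ertd254e at -0.15 ± 0.03. These 9 genes had the same sign in all 4 treatments and adjusted p from 0.364 to 0.548.

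Taken treatment by treatment, limma called 3 genes in control (0.0202%), 3 in abx (0.0202%), 4 in acetate (0.0269%) and 2 in abx_and_acetate (0.0134%). Shank3 and Acr, given as a description, were called in all 4 treatments and Fgl1 in control, abx and acetate. With all 35 libraries Acr was not called in acetate. The fourth gene in acetate was Foxm1, a transcription factor of dividing cells, named after its values were seen. It had 1.37, 0.66, 0.55, -0.07 and 0.63 log2 CPM in KO_acetate, from 19 to 49 reads, against -1.28, -0.30 and -0.61 in WT_acetate, from 7 to 17 reads. It rose there by 1.49 ± 0.26 (adjusted p = 0.0210), and averaged over treatments it was at 0.36 ± 0.13. The Foxm1 call was lost without WT_acetate 1 or 4 or without KO_acetate 1, 2 or 5 (adjusted p = 0.0554 to 0.305), and with all 35 libraries (adjusted p = 0.827), where the 2 libraries labelled WT_acetate that had been left out were at 0.07 and 0.60. It was also lost with voom weights (adjusted p = 0.0855), without the sex term (adjusted p = 0.101), without the libraries that go against their sex label (adjusted p = 0.134) and with KO_acetate 1 and KO_control 1 out together (adjusted p = 0.125). The count of 4 in acetate was 2 without WT_acetate 4 or KO_acetate 1, 2 or 5.

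No gene passed the threshold of the test that asks whether its KO minus WT difference differs among the 4 treatments. The interaction test of limma called 0 genes (0%), with 501 (3.37%) at an unadjusted p below 0.05, and 1 gene, Gm26992, with voom weights. The smallest p belonged to Tmtc1, which encodes an endoplasmic reticulum mannosyltransferase (adjusted p = 0.0984). Its differences were 0.16 ± 0.06 in control, 0.14 ± 0.08 in abx, -0.28 ± 0.07 in acetate and -0.37 ± 0.07 in abx_and_acetate. Tmtc1 passed in this test with KO_acetate 1 left out, alone or together with KO_control 1. Next by p were Cmya5 at 0.23 ± 0.11, 0.27 ± 0.14, -0.19 ± 0.12 and -0.59 ± 0.12 in the same order, Fam212a and the predicted gene Gm2897, each with an adjusted p = 0.501.

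Immediate early genes, the rapid transcriptional response of neurons to synaptic input, had mostly negative differences in KO. Of 36 measured, 34 had a negative difference, against 48.8% of all genes, and 24 had an unadjusted p below 0.05 as lower, against 3.64% of all genes. The median was -0.39, against 0.00 over all genes, and none of the 36 passed the adjusted test. The plasticity gene Arc lay between 5.58 and 8.84 log2 CPM in KO (median 7.32) and between 6.97 and 9.62 in WT libraries (median 8.47). Its difference was -1.05 ± 0.30 (adjusted p = 0.585), and 4 KO libraries lay below all WT libraries. The transcription factor genes Junb and Egr2 were at -0.63 ± 0.18 and -1.16 ± 0.34. Arc, Junb, Egr2 and Fos were picked out after their values were seen.

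By the rule for named genes, the list's smallest p values were those of Jun, which was higher, the ERK phosphatase gene Dusp6 at -0.50 ± 0.14 and the pseudokinase gene Trib1 at -0.58 ± 0.16. Jun differed in sign from its relatives Junb (-0.63 ± 0.18) and Fos (-0.87 ± 0.28), and it was the 1 member with an unadjusted p below 0.05 as higher. The count of 24 was 18 to 26 with 1 library left out, the lowest without WT_acetate 3, and 20 to 24 over the other settings. The median stayed between -0.48 and -0.32 with 1 library left out.

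The negative differences lay mostly in the groups without acetate. The median over the 36 genes was -0.78 in control and -0.68 in abx, against -0.01 in acetate and -0.16 in abx_and_acetate. In control 26 and in abx 13 members were lower at an unadjusted p below 0.05, against 2.20% and 1.67% of all genes, and 0 in acetate and in abx_and_acetate, against 3.15% and 2.41%. A list score, the mean deviation of a library from the members' means, was -0.29 ± 0.52 in KO_control (SD, n = 4) against 0.52 ± 0.36 in WT_control (SD, n = 6), and -0.30 ± 0.16 in KO_abx against 0.35 ± 0.43 in WT_abx (SD, n = 3 each). It was -0.14 ± 0.32 in KO_acetate (SD, n = 5) against -0.21 ± 0.29 in WT_acetate (SD, n = 3), and -0.13 ± 0.34 in KO_abx_and_acetate against -0.08 ± 0.24 in WT_abx_and_acetate (SD, n = 4 each). In control the library scores overlapped, from -0.74 to 0.29 in KO and from 0.11 to 0.94 in WT. In abx they did not, with -0.48 to -0.15 in KO and -0.03 to 0.82 in WT. The interaction test gave an unadjusted p below 0.05 for 5 of 36 members, against 3.37% of all genes. No member passed the adjusted test. The count of 5 rests on single libraries: it was 2 without KO_control 2, 3 without KO_control 1, WT_abx_and_acetate 1 or KO_abx_and_acetate 1, 8 without WT_control 3 or KO_acetate 1, 9 without WT_abx 2 or KO_abx_and_acetate 4, 12 without WT_acetate 3 and 13 without KO_control 4. It was 11 without the sex term.

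Cholesterol synthesis genes, which brain cells need because little sterol crosses the blood-brain barrier, differed little on average. Of 24 measured, 18 had a positive difference, 3 had an unadjusted p below 0.05 as higher (against 3.44% of all genes) and the median was 0.03, or 0.02 without KO_control 1 and 0.04 without KO_acetate 3 or WT_abx_and_acetate 4. Beside Dhcr7 these were the mevalonate kinase gene Mvk at 0.10 ± 0.04 and the farnesyl diphosphate synthase gene Fdps at 0.10 ± 0.05. The average hid opposite signs between treatments. The median was -0.02 in control and -0.12 in abx, and 0.12 in acetate and 0.21 in abx_and_acetate, where all 24 were positive against 51.2% of all genes.

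For 12 of the 24 the interaction test gave an unadjusted p below 0.05, against 3.37% of all genes, and for 0 an adjusted one. The isomerase gene Idi1 was at -0.15, -0.48, 0.14 and 0.23 in control, abx, acetate and abx_and_acetate, and the epoxidase gene Sqle at -0.10, -0.13, 0.16 and 0.36. Both were picked out after their values were seen. The list score was -0.04 ± 0.03 in KO_abx and 0.07 ± 0.02 in WT_abx (SD, n = 3 each), with the 3 KO libraries below the 3 WT libraries. It was 0.15 ± 0.07 in KO_abx_and_acetate and -0.07 ± 0.05 in WT_abx_and_acetate (SD, n = 4 each), with the 4 KO libraries above the 4 WT libraries. KO_abx_and_acetate has 3 females of 4 and WT_abx_and_acetate 1 of 4. The count of 12 was 9 to 14 with 1 library left out, 11 with all 35 libraries and 13 without the sex term.

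**Figure D4:**
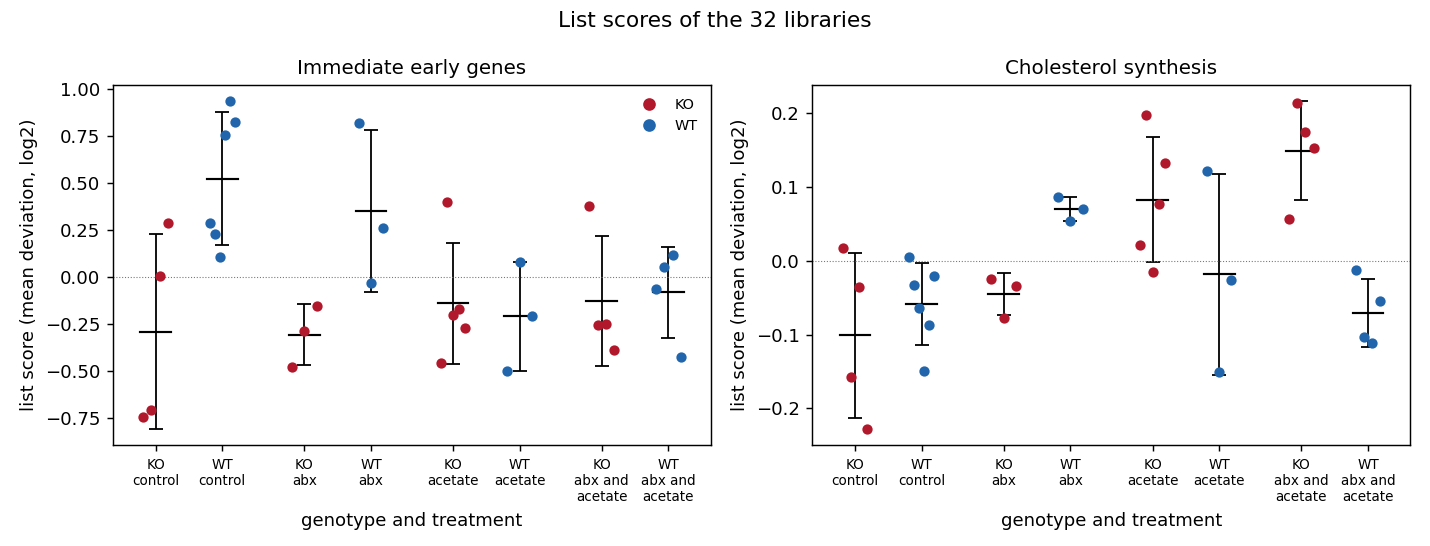
Scores of the immediate early list (left, 36 genes) and the cholesterol synthesis list (right, 24 genes) in the 32 libraries, as the mean deviation on the log2 scale from each member's mean. Points are libraries, lines and bars group means and SD. For immediate early genes the KO mean lies below the WT mean in control, where the libraries overlap, and in abx, where they do not. For cholesterol genes the order of KO and WT differs between abx and abx_and_acetate.

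Genes of the synapse that Shank3 helps to build had small differences. Of 29 other postsynaptic scaffold genes, 24 had a negative difference, against 48.8% of all genes, and 2 had an unadjusted p below 0.05 as lower, against 3.64%. The median was -0.04, or -0.02 without KO_acetate 1, without the sex term or with all 35 libraries, -0.06 without KO_acetate 3 and -0.01 without KO_acetate 1 and KO_control 1 together. By treatment it was 0.01 in control, -0.01 in abx, -0.13 in acetate and -0.05 in abx_and_acetate. The lower members were Homer1, whose protein binds Shank3 and whose short form is itself an immediate early transcript, at -0.31 ± 0.12, and Dlg1, which encodes SAP97, at -0.09 ± 0.04. The SAPAP genes Dlgap1 to Dlgap4 and the PSD-95 gene Dlg4 lay between -0.08 and -0.03. Sipa1l1, a regulator of spine actin, was at -0.10 ± 0.06.

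Among 33 glutamate receptor genes with their auxiliary subunits, 21 were positive and 12 negative, with a median of 0.01. The kainate receptor subunit gene Neto2 was at -0.22 ± 0.07, the 1 member with an unadjusted p below 0.05, and the AMPA receptor subunit genes Cacng3 and Cacng2 were at -0.18 ± 0.09 and -0.15 ± 0.08. Of 41 synaptic adhesion genes 32 were negative, against 48.8% of all genes (median -0.04). Clstn3 was at -0.08 ± 0.04, the neuroligin gene Nlgn1 at -0.13 ± 0.07 and Slitrk2 at -0.12 ± 0.06. Of 33 actin regulators 24 were negative (median -0.02), with Pak1 at -0.13 ± 0.06 and the WAVE complex gene Cyfip2 at -0.10 ± 0.05. Ssh2, also on the actin list, was higher in KO at 0.08 ± 0.04. KO_acetate 1 had the lowest scaffold and adhesion scores of the 32 libraries, and without it, or with all 35 libraries, the adhesion median was -0.02. The actin median was -0.01 without KO_abx 3 or KO_abx_and_acetate 1, and the receptor median ran from 0.00 to 0.04 with 1 library left out.

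At inhibitory synapses, 5 of 28 genes had an unadjusted p below 0.05 as lower and 1 as higher, against 3.64% and 3.44% of all genes. Among the lower ones, the GABA-A receptor subunit genes Gabrd and Gabrb2 were at -0.21 ± 0.06 and -0.13 ± 0.05, the scaffold gene Gphn (gephyrin) at -0.09 ± 0.03 and Lamp5, a marker of upper layer and neurogliaform cells, at -0.43 ± 0.19. Sst, the neuropeptide of Martinotti interneurons, was at 0.24 ± 0.07. None passed the adjusted test, the median of the 28 was -0.05, and with all 35 libraries the count of 5 was 1 and the median -0.02.

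Nuclear genes of oxidative phosphorylation had small and mostly negative differences. Of 83, 77 were negative, against 48.8% of all genes, and 15 had an unadjusted p below 0.05 as lower, against 3.64%, with a median of -0.06. The complex I genes Ndufv1 and Ndufs7 were at -0.08 ± 0.03 and -0.09 ± 0.03 and the ATP synthase gene Atp5b at -0.09 ± 0.03. The median was -0.16 in abx and -0.00 in acetate. The count of 15 rests on single libraries: it was 29 without KO_acetate 1, 23 without KO_abx 2, 9 without KO_control 1 or WT_acetate 1, 8 without WT_control 5 or WT_abx_and_acetate 1, 7 without WT_control 6 or WT_abx 2, 5 without WT_acetate 3 and 4 without KO_abx 1. It was 24 without the libraries that go against their sex label. The 13 mitochondrially encoded genes had a median of -0.04, 12 of them negative, and the median was -0.11 without WT_abx 3 and -0.01 without WT_abx 1.

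Markers of other cell types were counted in the same way. Of 7 blood markers, 5 were lower at an unadjusted p below 0.05, against 3.64% of all genes, and the median was -0.49. By treatment the median was -0.20 in control, -0.87 in abx, -0.66 in acetate and 0.01 in abx_and_acetate. The haemoglobin genes Hba-a1 and Hba-a2, whose reads may be shared because the genes are nearly identical, were at -0.51 ± 0.19 and -0.57 ± 0.19, Hbb-bs at -0.45 ± 0.19, Hbb-bt at -0.53 ± 0.20 and the haem synthesis gene Alas2 at -0.49 ± 0.21. The blood score ran from -0.87 to 0.16 in KO libraries and from -0.65 to 1.06 in WT libraries. Without WT_abx_and_acetate 4 the count of 5 was 3 and the median -0.32. The part of blood in other differences was not tested.

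Deep layer neuron markers had 13 of 15 positive differences, against 51.2% of all genes (median 0.22), with the synaptotagmin gene Syt6 at 0.50 ± 0.23, Nxph4 at 1.09 ± 0.48 and Pcp4 at 0.31 ± 0.15, and scores from -0.59 to 0.78 in KO against -0.59 to 0.75 in WT libraries. Myelin markers had 22 of 23 positive (median 0.18), none at an unadjusted p below 0.05, with scores from -0.84 to 1.74 in KO against -0.60 to 0.49 in WT. Markers of striatal medium spiny neurons had 18 of 20 positive (median 0.15), with scores from -0.17 to 2.41 in KO against -0.30 to 0.14 in WT. KO_acetate 1 had the highest score of all 3 lists. Without it the medians were 0.13, 0.07 and 0.05. Without it and KO_control 1 they were 0.13, 0.01 and 0.07. The myelin median was also 0.08 without KO_abx 3 and 0.31 without KO_abx 1.

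The deep layer and myelin medians had opposite signs between treatments, while the medians over all genes lay within 0.01 of 0. The deep layer median was 0.13 in control, -0.18 in abx, where all 15 members were negative, 0.70 in acetate and 0.21 in abx_and_acetate. The myelin median was -0.08 in control, -0.19 in abx, 0.69 in acetate and 0.27 in abx_and_acetate. The striatal median was 0.02 in control, -0.00 in abx, 0.54 in acetate, the group of KO_acetate 1, and 0.17 in abx_and_acetate. The part of these markers in the differences of other genes was not tested.

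**Figure D5:**
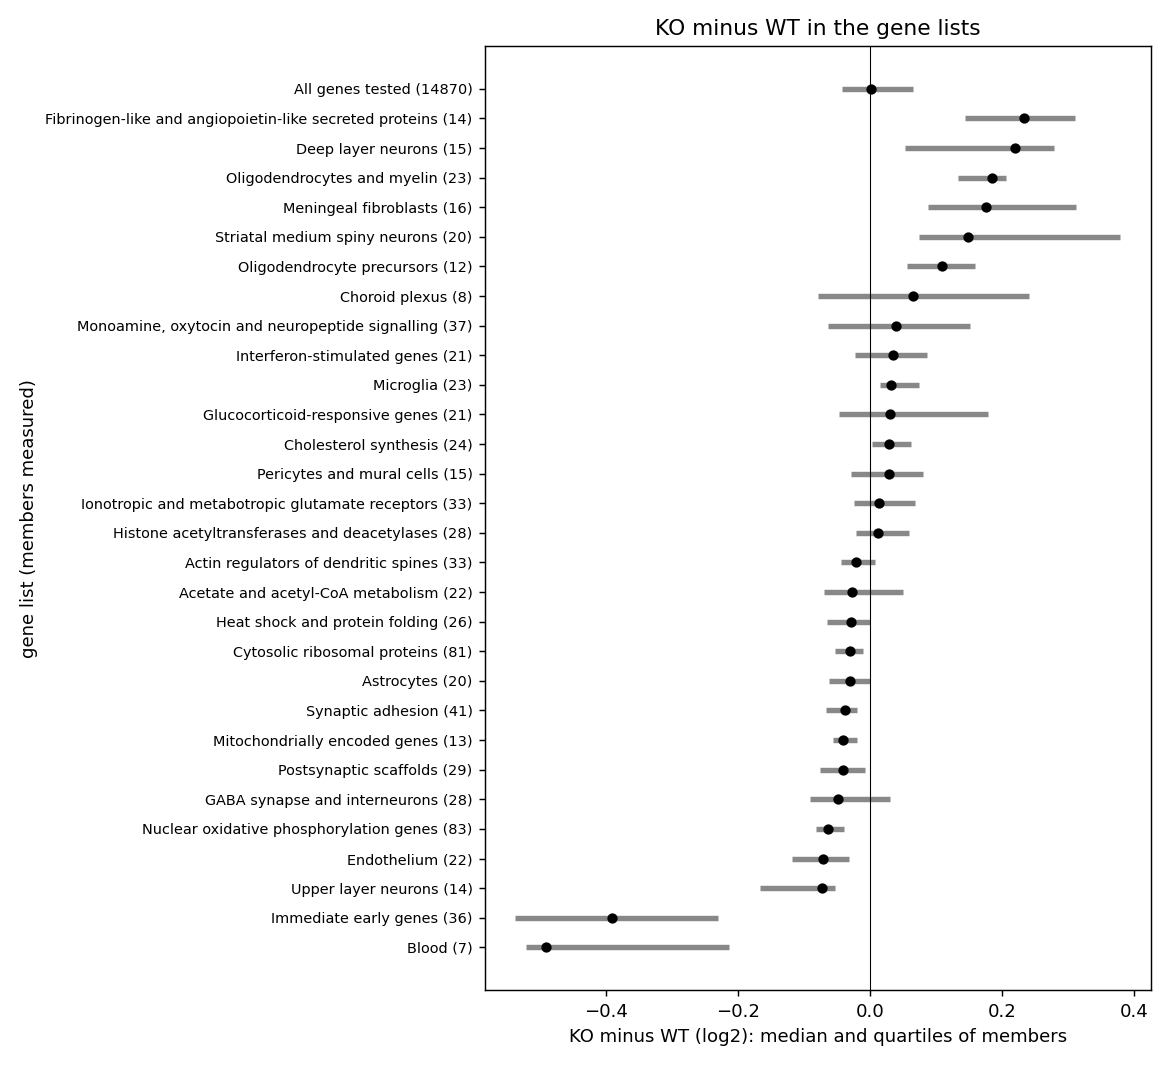
Median (points) and quartiles (bars) of the KO minus WT difference, mean of 4 treatments on the log2 scale, over the measured members of each gene list and over all genes. Blood markers (-0.49) and immediate early genes (-0.39) lie lowest, the fibrinogen-like (0.23) and deep layer (0.22) lists highest, and all genes at 0.00.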

How the data were processed

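Bulk RNA-seq of medial prefrontal cortex was deposited as 1 matrix of log2 CPM, matched to samples by title. Per the submitters' processing notes the authors used limma, with no version, and the deposited log2 values have the form of voom: log2 of reads plus 0.5 over an effective library size. Reads recovered on that form were whole within 0.01 for 100% of values, and gave depth. The aligner, counter, strand setting, genome build, annotation and low-count filter were not given in the sources used here. Positions come from GENCODE vM21 (GRCm38) and were found for 14404 genes (96.9%). Some 12 rows repeat another row.

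The deposited values were fitted in limma (version 3.58.1, under R 4.3.3) with 8 group means and labelled sex, which leaves 23 residual degrees of freedom, and with a mean-variance trend. The average gave the 4 within-treatment KO minus WT differences equal weight. P-values were 2-sided and adjusted by Benjamini-Hochberg over 14870 genes, with a threshold of 0.05, and the interaction was an F-test. Replicates differed by more than counting error (chi-square per gene 7.01 to 63.2), so none was merged. In simulated data 79% of genes changed by 0.5 and 96% of those changed by 1 on the log2 scale were called in the averaged comparison of 14870 genes, with 12 unchanged genes called. The simulation changed 100 genes at each size, all with a mean of at least 0 log2 CPM, and let each gene vary independently. Fewer genes were called in the real data, so these shares may overstate what the averaged comparison could find.

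Named genes were Shank1 to Shank3 and Acr, every called gene, the 10 higher and 10 lower genes with the smallest p and a mean of at least 0 log2 CPM, the 4 with the smallest interaction p, the 3 smallest p of each list described, and genes whose genotypes did not overlap. A gene that this rule picks is not reported here. Members and lists were chosen with earlier results of these data known. Lists are described by counts and medians, without a set test. Which lists are described, the interaction counts within lists and the cut on Y-linked genes were chosen after values were seen.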

Additional observations from a re-analysis of the deposited data

Results flagged for a closer look

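Within groups of 4 to 6 libraries, 20 of 305 checks over 61 named genes (6.56%) found 1 library far from the rest of its group, where chance flags about 1 in 20. Each value is in log2 CPM, followed by the range of the others in its group. KO_acetate 4 had Fgl1 at 0.71 (others 1.42 to 1.67) and Fam212a at 0.52 (others -0.04 to 0.11). KO_abx_and_acetate 1 had Fgl1 at 1.64 (others 0.84 to 0.96) and Trib1 at 5.51 (others 4.86 to 4.88). KO_abx_and_acetate 2 had Pagr1a at 0.45 (others 2.03 to 2.18), Neto2 at 6.07 (others 5.60 to 5.63) and Sst at 7.81 (others 7.20 to 7.30). WT_control 2 had D930015E06Rik at 4.05 (others 3.75 to 3.86) and Hs2st1 at 6.05 (others 6.27 to 6.33). KO_acetate 1 had Csrnp2 at 4.70 (others 5.03 to 5.14), Nlgn1 at 5.48 (others 6.07 to 6.30), Cyfip2 at 9.55 (others 10.14 to 10.24) and Dusp6 at 5.43 (others 6.18 to 6.41). WT_abx_and_acetate 4 had Tmtc1 at 6.96 (others 6.66 to 6.68) and Trib1 at 4.71 (others 5.33 to 5.45). KO_control 1 had Cacng3 at 6.73 (others 7.33 to 7.36) and Nlgn1 at 6.10 (others 6.22 to 6.24). KO_control 3 had Ndufs7 at 6.06 (others 6.11 to 6.12). WT_control 4 had Ndufs7 at 6.25 (others 6.12 to 6.17). WT_control 1 had Hba-a1 at 6.18 (others 4.34 to 4.92).

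The libraries labelled WT and left out for their Shank3 level had signals above those kept as WT. Acr was at 4.46 in the library labelled WT_acetate 2, 3.62 in that labelled WT_acetate 5 and 4.56 in that labelled WT_abx 4, against -0.46 to 0.83 in the 16 WT libraries used. The library labelled WT_abx 4 also had C730034F03Rik at 1.16, against -0.59 to 0.96, and Fgl1 at 0.95, against -1.18 to 0.55.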

How the results depend on the processing

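The averaged comparison called the same 4 genes under every other setting tried, except that C730034F03Rik was lost with all 35 libraries, and the count was 4 to 5 with 1 library left out. With 1 library left out the counts were 3 in control, 2 to 3 in abx, 2 to 4 in acetate, 2 to 3 in abx_and_acetate, 0 to 1 for the interaction and 3 for genes whose genotypes do not overlap. The acetate count, 4 as reported, was 1 with all 35 libraries and 2 with voom weights, without the 2 libraries against their sex label, or without KO_acetate 1 and KO_control 1 together. The interaction count, 0 as reported, was 1 with voom weights and 1 without KO_acetate 1 and KO_control 1 together. That joint omission was chosen after seeing the data. The count of genes whose genotypes do not overlap, 3 as reported, was 2 to 3 over the 7 other settings where it was taken. The sign turned for Gm2897 with all 35 libraries (-0.051) and for Shank1 without WT_abx 1 (-0.075 to 0.000371 over the fits with 1 library left out) or without KO_acetate 1 and KO_control 1 together (0.00193). The causes were not tested. Centring each library on its median moved the share of positive differences from 51.2% to 45.6% and the median of all genes to -0.01. No paired analysis was possible because the labels give no replicate numbers. Fgl1 and C730034F03Rik rest on few reads per library, so their folds carry more counting error than those of abundant genes, and groups of 3 limit the single treatments.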

Other observations

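Some lists that bear on no comparison above were also counted in the averaged KO minus WT difference, and 0 of their members passed the adjusted test. Over all genes, 48.8% of the differences were negative. Endothelial markers had 19 of 22 negative with a median of -0.07, or -0.13 with all 35 libraries. Upper layer neuron markers had 11 of 14 negative (median -0.07, and -0.12 to -0.04 with 1 library left out). Cytosolic ribosomal protein genes had 71 of 81 negative (median -0.03, or -0.06 with all 35 libraries). Genes of acetate and acetyl-CoA metabolism had 13 of 22 negative differences (median -0.03, or -0.01 with all 35 libraries). Of these genes 3 were lower at an unadjusted p below 0.05, against 3.64% of all genes. Histone acetyltransferases and deacetylases had 12 of 28 negative (median 0.01), with 0 at an unadjusted p below 0.05.

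The medians of other lists turned sign with the libraries used, so they give no direction. Meningeal fibroblast markers had 15 of 16 positive, against 51.2% of all genes (median 0.18). Their scores ran from -1.10 to 1.21 in KO and from -1.63 to 1.15 in WT libraries. Their median was 0.07 without WT_control 5, 0.09 without WT_acetate 3, 0.10 without KO_abx 1 and -0.00 with all 35 libraries. Microglia markers had a median of 0.03, or -0.01 with all 35 libraries or without WT_abx 3. Astrocyte markers had -0.03, or 0.01 without WT_acetate 3. Interferon-stimulated genes had 0.04, or -0.08 with all 35 libraries and -0.04 without KO_abx 1. Heat shock genes had -0.03, or 0.01 without KO_control 1. Glucocorticoid-responsive genes had 0.03, or -0.06 without KO_control 1, whose score was 1.35.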
